A study of Mus musculus with 4 samples.

Results

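Coding changes in 5 receptor tyrosine kinases (Erbb3, Flt3, Flt4, Ntrk2 and Tyro3) and in Pik3ca, the catalytic subunit of a lipid kinase that such receptors activate, were taken from the exome variant lists of 4 mouse tumour cell lines. The genes were chosen by symbol with the lists already known, because each has a protein-changing row, so that these rows exist is not a finding. The 6 genes account for 7 of the 2013 listed variants and for 6 of the 1555 listed gene symbols. MB49 has changes in Pik3ca and Erbb3, YUMM 1.1 has a change in Flt4, and UV YUMM 1.1-9 has changes in Flt3, Ntrk2 and Tyro3. The YUMM 1.3 list holds none of the 6 genes, and none of them is listed in more than 1 line.

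Each line was sequenced as 1 exome library, so no value below has a replicate, and every interval covers counting error only. YUMM 1.1 and YUMM 1.3 are known as melanoma lines from mice with an activating Braf allele. UV YUMM 1.1-9 is tabulated against YUMM 1.1 as the line that carries additional changes; the labels do not describe how it was made. MB49 is known as a mouse bladder carcinoma line obtained with a carcinogen. No sample is titled MB49, and its table was taken for the sample titled 49XC-49 because the other 3 tables match the other 3 titles. The protocols name cell lines as the source of the DNA, with YUMM 1.3 left unmentioned, yet the labels also call every sample mouse tumors and describe, for all samples alike, MB49 cells grown under the skin of mice given tamoxifen to delete Atg7. The variant lists of YUMM 1.1, YUMM 1.3 and MB49 are headed as those of cell lines. The sample labels themselves do not settle which of these the DNA came from. Median depth at the listed sites was between 45.0 and 107 reads, and the sites of the 6 genes had 14 to 57 reads. The 3 single-line lists hold no variant under 5 alternative reads, whereas the UV YUMM 1.1-9 list goes down to 3, so rows with 3 or 4 alternative reads could appear in that list alone.

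Receptor tyrosine kinases cross the cell membrane once, bind a ligand outside the cell and switch on a kinase domain inside it. The phosphorylated receptor then recruits adaptors and phosphoinositide 3-kinase, whose catalytic subunit p110 alpha is the product of Pik3ca, and it feeds the Akt and MAP kinase cascades. Melanocytes depend on such receptors, Kit among them, and in melanomas with an activated Braf the MAP kinase cascade runs without them. In bladder cancers, changes in receptors of the ErbB family and in the human counterpart of Pik3ca are common.

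All 7 changes replace a single base in coding sequence. There were 5 missense changes, 1 stop gain and 1 synonymous change. SIFT, a predictor that scores an exchange by how well related proteins tolerate it (0 is least tolerated), called all 5 missense changes deleterious, with scores from 0 to 0.05. In the lists that hold them, SIFT called 43.2% (YUMM 1.1), 55.3% (MB49) and 56.9% (UV YUMM 1.1-9) of scored changes deleterious. The class was not part of the rule, but 5 changes picked by gene are too few to set against those shares, and no test was made. All 5 exchanges also had a score below 0 in BLOSUM62, a matrix in which negative scores mark exchanges rare among related proteins; such exchanges made up 44.4% to 54.5% of missense changes in the same lists. In 3 of the 5 (Erbb3, Flt4 and Flt3) a charged residue was replaced by an uncharged one, a kind of change that made up 12.4% to 17.4% of missense changes in those lists. For BLOSUM62 and for charge, too, 5 changes picked by gene are too few to set against these shares, and no test was made.

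The kinase subunit is described first. Pik3ca N605Y in MB49 lies at 3:32449975 (mm10, plus strand), inside the gene at 3:32397065-32466112, in codon 605, where Aac became Tac (the capital marks the changed base). It exchanges asparagine for tyrosine in a part of p110 alpha that is known as the helical domain, the domain that also holds a cluster of recurrent changes of human tumours; the protein sequence was not used here, so the domain is given from general knowledge. Of 51 reads, 27 had the reference base and 24 the new base, an allele fraction of 47.1% (exact 95% interval 32.9 to 61.5). This lay close to the median of the MB49 list, 45.7%, with 54.6% of its 707 variants below it, and the interval holds 50%, the share of a change on 1 of 2 equally present copies. The SIFT score was 0.03, at or below which 50% of the 434 scored missense changes of MB49 lay. The exchange of asparagine for tyrosine was listed 5 times among the 514 missense changes of that line. Written from the pyrimidine, the change is T>A, the class of 173 of the 707 MB49 variants (24.5%), and T preceded the changed T, as in 21 of the 126 T>A changes whose 5' neighbour the codon shows (16.7%). No other listed MB49 variant lay within 1 Mb; the nearest was a synonymous change in Lrriq4, 1799251 bases away.

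Erbb3 E926G was the other MB49 change. Erbb3 encodes a receptor for neuregulins that has little kinase activity of its own and signals by pairing with other ErbB receptors and by recruiting phosphoinositide 3-kinase. The change lies at 10:128571701 on the minus strand of the gene at 10:128567523-128589635, in codon 926, where gAg became gGg, glutamate to glycine. The residue is in the intracellular part of the receptor, in its kinase domain by general knowledge. A recurrent glutamate-to-glycine change is known in the kinase domain of human ERBB3; the mouse and human proteins were not aligned here, so whether it is the same residue was not tested. The site had 18 reference and 24 alternative reads, an allele fraction of 57.1% (41.0 to 72.3), above 84.2% of the MB49 list. It was the highest allele fraction of the 7 changes. The SIFT score was 0, as for 130 of the 434 scored missense changes of the line, and glutamate to glycine was listed 2 times. As a T>C change it belongs to a class with 101 MB49 variants (14.3%); C stood on both sides of the changed T, before it in 27 of 76 such changes with a known 5' neighbour and after it in 18 of 68 with a known 3' neighbour. Allele fractions of Erbb3 and Pik3ca differed by 10.1 percentage points, at 42 and 51 reads. The interval of this difference (Newcombe, 95%) ran from -9.99 to 29.0, covers counting error only and is not read as a test. The allele fraction intervals of Erbb3 and of Pik3ca both hold the list median and 50%.

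**Figure D1:**
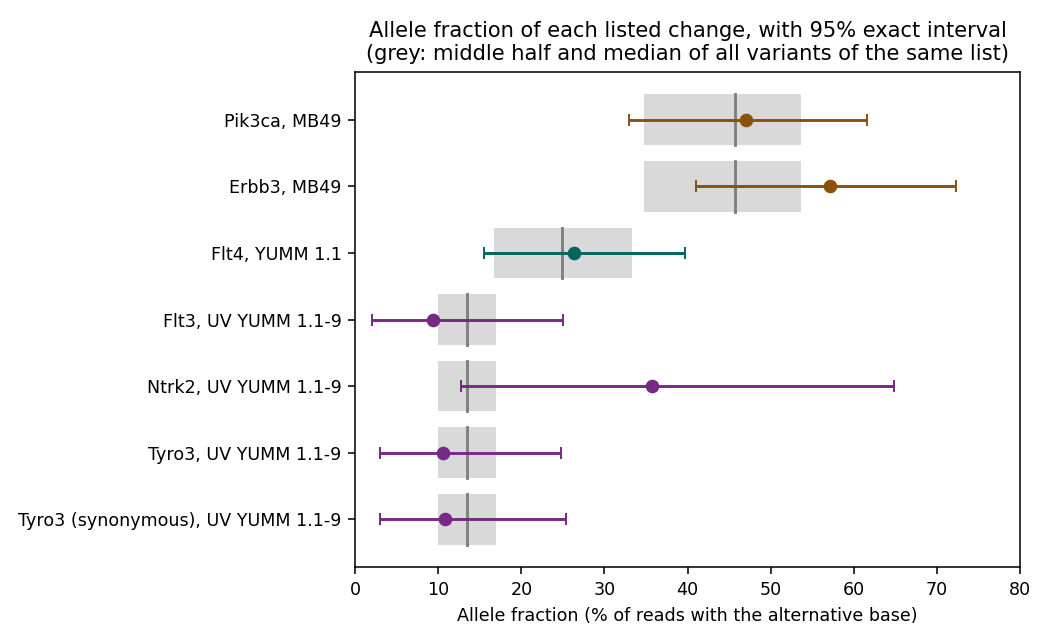
Allele fraction in percent (x axis) of each listed change of the 6 genes, by gene and line (y axis), as points with 95% exact intervals; grey bands give the interquartile range and grey lines the median of all variants of the same list. The MB49 changes of Pik3ca and Erbb3 lie at 47.1% and 57.1%, Flt4 at 26.3%, and the UV YUMM 1.1-9 changes between 9.38% and 10.8% except Ntrk2 at 35.7%, which has the widest interval.

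Flt4 carried the single change of YUMM 1.1 among these genes. Flt4 encodes the receptor for VEGF-C and VEGF-D, best known from lymphatic endothelium. K516T lies at 11:49632104 on the plus strand of the gene at 11:49609679-49652739, in codon 516, where aAg became aCg, lysine to threonine, in the extracellular part with its immunoglobulin-like domains. It is the only one of the 7 that is annotated as lying in a splice region as well as being missense. Of 57 reads, the deepest of the 7 sites, 15 had the new base, an allele fraction of 26.3% (15.5 to 39.7), whose interval excludes 50%. The YUMM 1.1 list had a median of 24.9%, and 54.0% of its 428 variants lay below the Flt4 change. The SIFT score was 0, as for 57 of the 250 scored missense changes of the line (22.8%). T>G changes made up 46 of the 428 variants (10.7%), and the changed T stood between C and T, with C before it in 14 of the 27 T>G changes that show this neighbour (51.9%) and T after it in 21 of 34 (61.8%). The lists give no reads of UV YUMM 1.1-9 at this site, because that table covers additional changes only.

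In UV YUMM 1.1-9 the 4 rows lie in 3 receptors, and this table also gives the reads of YUMM 1.1 at each site. The authors listed these sites because they differ from YUMM 1.1, so the reads of the 2 lines are described and not tested. Of all 653 sites of the list, 585 (89.6%) had no alternative read in YUMM 1.1 and the other 68 (10.4%) had exactly 1. The listing thus set the direction of each difference between the lines in advance. Intervals of those differences are given for counting error only and are not read as tests.

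Flt3 encodes the receptor for FLT3 ligand on early blood cells and dendritic cell precursors. R490I lies at 5:147356326 on the minus strand of the gene at 5:147330741-147400489, in codon 490, where aGa became aTa, arginine to isoleucine, in the extracellular part of the receptor. It had 3 alternative reads of 32, an allele fraction of 9.38% (1.98 to 25.0), and 94 of the 653 sites (14.4%) also had 3, the lowest number listed. YUMM 1.1 had 0 of 33 reads with this base, which allows a share of up to 9.09% (3 reads over the depth, a limit on the upper side only). The shares of UV YUMM 1.1-9 and YUMM 1.1 differed by 9.38 percentage points (Newcombe 95% interval -2.72 to 24.2). Its SIFT score of 0.05 was the highest that the list still calls deleterious, shared with 7 other changes, and a score printed as 0.05 is also the lowest called tolerated, so the call sits at the edge of the class. In BLOSUM62 it was the most unlike exchange of the 5, with -3, a score that 53 of the 394 missense changes of the line (13.5%) reached or went below, and arginine to isoleucine was listed this once. It is a C>A change, a class of 59 variants (9.04%), with T on both sides of the changed C; T preceded it in 16 of 42 C>A changes with that neighbour known and followed it in 13 of 32.

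Ntrk2 carried the only stop gain. Ntrk2 encodes TrkB, the receptor for brain-derived neurotrophic factor. Q772* lies at 13:59128201 on the plus strand of the gene at 13:58806472-59133970, 5769 bases from its annotated 3' end, in codon 772, where Cag became Tag, glutamine to stop. By general knowledge this codon falls in the last part of the kinase domain, ahead of the tyrosine near the C terminus that docks phospholipase C gamma. Several Ntrk2 transcripts are annotated, and forms of TrkB that lack the kinase domain are known; the position counts along the transcript used by the authors. Its 5 alternative reads of 14 gave 35.7% (12.8 to 64.9). This ranked 6 from the top among the 653 allele fractions and 1 among the 37 stop gains, but no site of the list had fewer reads, and only 6 sites had 14. The interval holds 50% as well as the list median of 13.5%. YUMM 1.1 had 0 of 20 reads with the new base, which allows up to 15%. The difference between the lines was 35.7 percentage points (Newcombe interval 10.5 to 61.2), at a site listed for that difference. The change is C>T, the leading class of the list (283 of 653, 43.3%), and 10 of the 37 stop gains were glutamine to stop, 8 of them from the codon CAG. A followed the changed C; the base before it lies in the codon before and was not known.

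**Figure D2:**
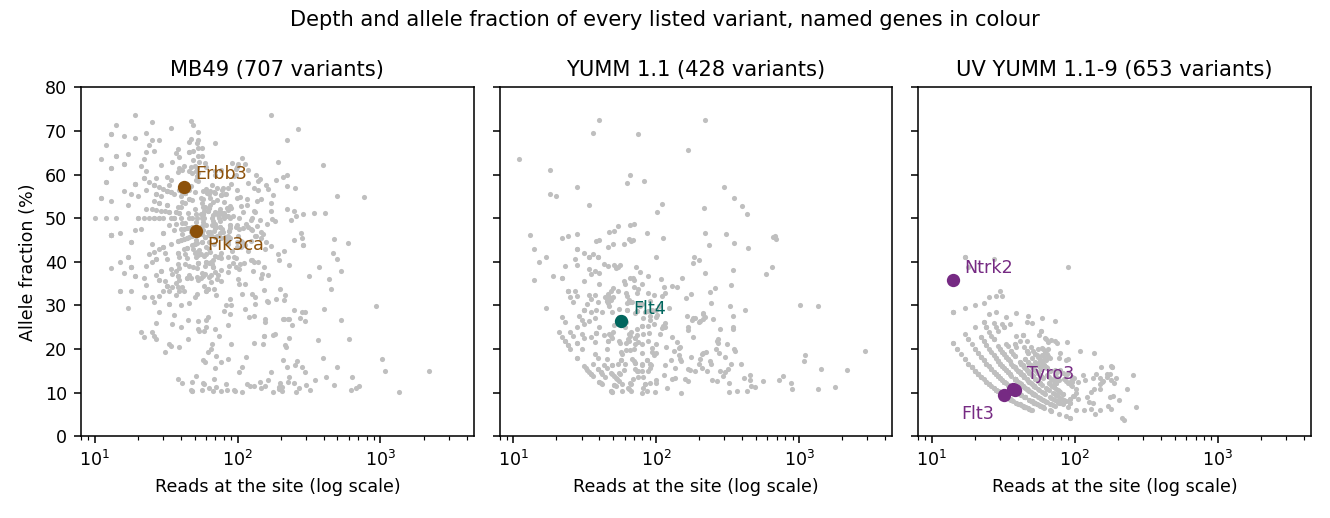
Reads at the site (x axis, log scale) against allele fraction in percent (y axis) for every variant listed for MB49, UV YUMM 1.1-9 and YUMM 1.1 (grey) with the changes of the 6 genes in colour. Ntrk2 lies at the shallow edge of its list with 14 reads. Flt3 and Tyro3 lie among the rows with 3 and 4 alternative reads, seen as curved bands. Pik3ca and Flt4 lie inside the bulk of their lists, and Erbb3, at 57.1%, lies above the MB49 upper quartile of 53.7%.

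Tyro3 had 2 rows, in neighbouring bases of the same codon. Tyro3 encodes a receptor of the TAM family, with Axl and Mertk, that binds Gas6 and protein S. The gene lies at 2:119797740-119818104 on the plus strand. At 2:119812564 the second base of codon 622 changed from T to A, listed as L622Q (SIFT score 0), and at 2:119812563 its first base changed from C to T, listed as synonymous. By general knowledge codon 622 lies in the kinase domain. The first change had 4 alternative reads of 38, or 10.5% (2.94 to 24.8), and the second 4 of 37, or 10.8% (3.03 to 25.4). YUMM 1.1 had 1 of 29 reads with the new base at the first site, or 3.45% (0.0873 to 17.8), and 0 of 29 at the second, which allows up to 10.3%. The differences between the lines were 7.08 percentage points (Newcombe interval -8.05 to 21.0) and 10.8 (-2.58 to 24.7).

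Each base was annotated alone in the list. The codon is printed here because the listed consequences hold only if the changes lie on different molecules; capitals mark the changed bases.

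Tyro3 codon 622, reference: CTg

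Tyro3 codon 622, missense row alone (glutamine): cAg

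Tyro3 codon 622, synonymous row alone (leucine): Ttg

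Tyro3 codon 622, both changes together (stop): TAg

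Read together, the changes give TAG, a stop codon, so the pair would be L622* and not L622Q. The rows carry equal numbers of alternative reads, 4 and 4, but the lists give no reads per molecule, so whether the changes lie together was not tested. To set this beside the other lists, every pair of listed changes in the same codon was joined in the same way. There were 23 such pairs in the 4 lists, 14 in UV YUMM 1.1-9, 8 in MB49, 1 in YUMM 1.3 and 0 in YUMM 1.1. In 9 of the 23 the joined codon encodes a residue given by neither row alone, and Tyro3 is the only one in which it is a stop that neither row shows. In 1 other pair of UV YUMM 1.1-9 the reverse holds, a listed stop that the joined codon would not have. Alternative reads were equal in 11 of the 14 UV YUMM 1.1-9 pairs and in 2 of the 8 of MB49, where they ranged from 11 to 43. The UV YUMM 1.1-9 pairs in Cabp2, Gfap, Olfr307, Vmn2r41 and Zfp663, unlike that of Tyro3, hold a row whose bases belong to a partner row. All of these except Olfr307 are among the equal pairs, and whether their read counts are also those of the partner was not tested. Only 6 of the 14 UV YUMM 1.1-9 pairs, and not that of Tyro3, had at least 5 alternative reads and 10% at both bases. The C of codon 622 is followed by T, as is the changed C in 63 of the 152 C>T changes of the line that show this neighbour (41.4%), and the changed T is preceded by C, as in 20 of 71 T>A changes (28.2%), and followed by G, as in 6 of 74 (8.11%).

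**Figure D3:**
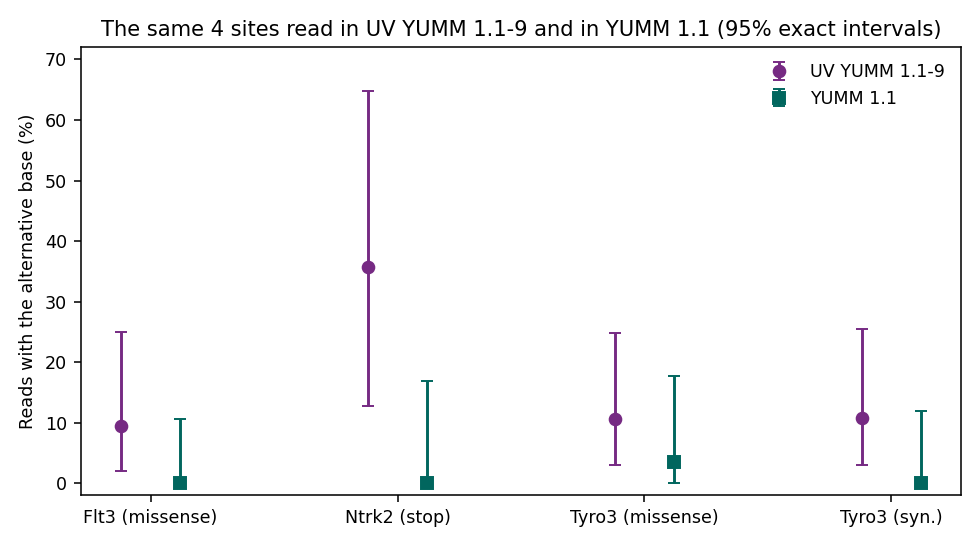
Percent of reads with the alternative base (y axis) at the 4 UV YUMM 1.1-9 sites in Flt3, Ntrk2 and Tyro3 (x axis), in UV YUMM 1.1-9 (circles) and YUMM 1.1 (squares), with 95% exact intervals. YUMM 1.1 lies at 0% at 3 sites and at 3.45% at the Tyro3 missense site, and UV YUMM 1.1-9 lies between 9.38% and 35.7%.

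Among the UV YUMM 1.1-9 changes, the allele fraction of Ntrk2 exceeded that of Flt3 by 26.3 percentage points (Newcombe interval 1.94 to 52.6) and that of the Tyro3 missense change by 25.2 (1.52 to 51.5). The lower bounds lie just above 0, and the genes were picked with these values known. Tyro3 and Flt3 differed by 1.15 percentage points (-15.0 to 16.1). None of these intervals is read as a test. Within the list, Flt3 lay above 18.1% of the variants, the Tyro3 missense change above 28.0%, the Tyro3 synonymous change above 30.3% and Ntrk2 above 99.1%. The 208 sites with 3 or 4 alternative reads made up 31.9% of the list, and Flt3 and both Tyro3 rows are among them. With the floor that the other lists obey, at least 5 alternative reads and 10%, the number of these genes with a protein change in UV YUMM 1.1-9 fell from 3 to 1, and Ntrk2 was left.

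The remaining genes of the pathway were read from 4 lists of symbols. A protein-changing variant was listed for 5.16% of the 21900 protein-coding genes over the 4 lines, for 1.13% in YUMM 1.1, 1.84% in UV YUMM 1.1-9, 0.562% in YUMM 1.3 and 2.14% in MB49. Of 58 receptor tyrosine kinases, 9 had a protein-changing variant (15.5%), and 5 of these 9 are the receptors described above, which were picked for having one. Of the 53 others, 4 did (Insrr, Ror2, Epha6 and Ephb2). By line, 5 of 58 were listed in UV YUMM 1.1-9, 2 in YUMM 1.1, 2 in MB49 and 0 in YUMM 1.3. Genes differ in coding length, which was not used here, and no test was made.

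Those other receptors were read in the same way. In UV YUMM 1.1-9 the ephrin receptor genes Epha6 and Ephb2 had I942N with 7 alternative reads of 47 (14.9%, 6.20 to 28.3) and I753M with 6 of 44 (13.6%, 5.17 to 27.4). Both were called deleterious, had no alternative read in YUMM 1.1 (0 of 44 and 0 of 35 reads) and lie above the common floor, unlike Flt3 and Tyro3. In YUMM 1.1 Insrr, a receptor related to the insulin receptor, had A1036P with 14 of 44 reads (31.8%, 18.6 to 47.6), a deleterious call with a score of 0.04. In MB49 Ror2, a Wnt5a receptor, had R474K with 21 of 53 reads (39.6%, 26.5 to 54.0), called tolerated with a score of 0.14. Ror2 also had a synonymous change with 16 of 39 reads, and Igf1r, the receptor of insulin-like growth factors, had a synonymous change with 21 of 46 (45.7%). The allele fractions of these MB49 rows lay within the interval of Pik3ca, and that of Insrr within the interval of Flt4.

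Ligands and downstream genes were counted in the same way, against the 5.16% of all genes with a protein change. Of 12 ligands of the 5 receptors, among them neuregulins, Flt3l, Vegfc, Vegfd, Bdnf and Gas6, 0 had a listed change of any kind, a count that so short a list gives little weight. Of 36 genes of phosphoinositide 3-kinase signalling, Pik3ca, picked for its change, was the only one with a row (2.78%), so that no regulatory subunit, no Akt gene and no Mtor row appeared. Of 36 adaptor and MAP kinase genes, 1 had a row (2.78%): Spry4, an inhibitor of receptor signalling, with L246M in UV YUMM 1.1-9 in 3 of 23 reads (13.0%), called tolerated. With 1 gene or none per list, these shares are not results about the lists. Every row of the 4 lists is a change of 1 base at 1 position, so a deleted gene or exon would not be seen in them.

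**Figure D4:**
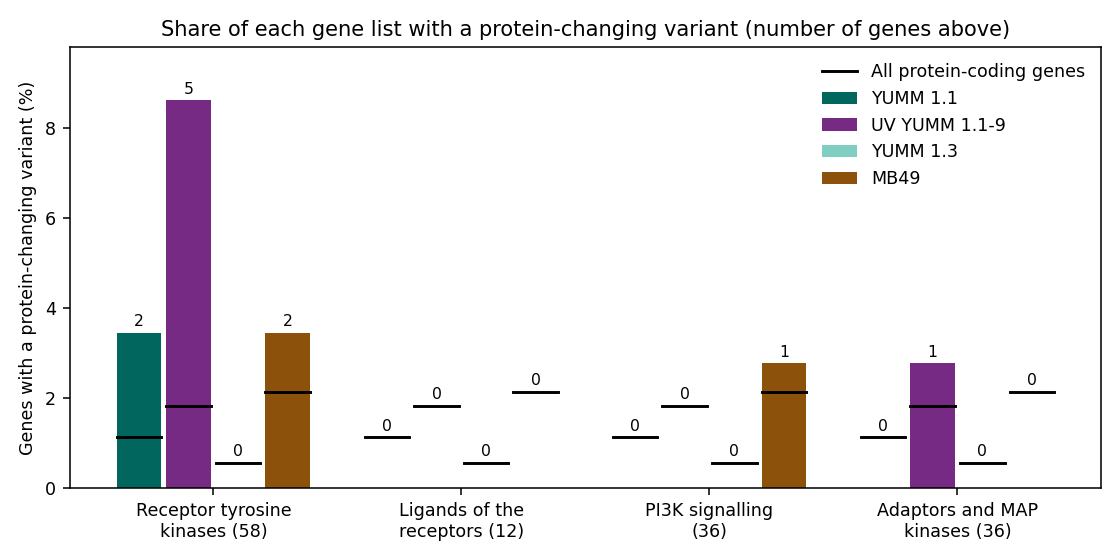
Percent of the genes of each list with a protein-changing variant (y axis) for 4 gene lists (x axis, number of genes in brackets) in each line (bars), with the number of genes above each bar and black lines for the share of all protein-coding genes in that line. Receptor tyrosine kinases have 5, 2 and 2 genes in UV YUMM 1.1-9, YUMM 1.1 and MB49, of which 3, 1 and 1 were picked for having a change, and the other lists have at most 1 gene per line.

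Rows of the same list with the same base change and consequence and the closest allele fraction were looked up for each change; they were picked for closeness, so small differences follow from the choice. For Pik3ca the nearest of 125 such rows were Morc2b N928K, with the same 24 of 51 reads, and Pcdhb9 I66F at 47.2%, a difference of 0.111 percentage points. For Erbb3 they were Muc4 V916A, with the same allele fraction from 28 reads, and C330027C09Rik F45L at 56.9% from 130 reads, of 66 rows. For Flt4, whose consequence joins missense and splice region, only 2 rows qualified, Trappc13 Q383H at 26.1% and Arhgef11 D1069E at 24.8%. Missense T>G rows without the splice region annotation were not compared. For Flt3 the nearest of 36 were Olfr259 V145L at 9.28% and Hectd4 M1025I at 9.21%. The Tyro3 missense change lay nearest to AL773585.3 F103I at 10.6% and Dnah7a E321D at 10.8%, of 73 rows, and the synonymous change equalled Atp11a V483V and Ing5 L56L, each with 4 of 37 reads, of 130 rows. Ntrk2 had no close row: of 13, the nearest were Olfr1325 R145* at 21.7% and Csmd3 Q851* at 16.1%, the second differing from it by 19.6 percentage points.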

How the data were processed

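Exome libraries of 4 mouse lines, 1 per line, were read from both ends (151 bases each) with a mean depth given as 80X, per the labels' protocols. BWA 0.7.5a, SAMtools, Picard, GATK and FastQC, and the mm10 build, appear in the submitters' processing notes without their roles. Which program called or annotated the variants, and with which filters, is not given in the sources used here. The deposited tables give whole-number read counts of the reference and alternative base, not normalized. A position and new base listed repeatedly for a line counted as 1 variant. Base changes, neighbours and joined codons were read from the codon column, and no row of the 6 genes was among the 32 UV YUMM 1.1-9 rows whose bases belong to a partner row. Gene spans and symbols come from RefSeq GRCm38.p6, the assembly also called mm10; protein and genome sequences were not used here. Allele fraction is alternative reads over both counts, with Clopper-Pearson intervals at 95%; repeated reads of a molecule could not be told apart, as no molecular identifiers are given. The limit for a count of 0 is 3 reads over the depth. The interval routine was tested on simulated data. Protein-changing means missense, stop gained, stop lost or start lost. Members and gene lists were chosen with earlier results of these data known, and no test was made. Named are the 6 genes, every other gene of the pathway lists with a row, and the 2 rows per change closest in allele fraction. The genes named for the pairs and as neighbours were chosen after their values were seen. Python 3.11.15, SciPy 1.17.1 and Biopython 1.88 were used.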

Additional observations from a re-analysis of the deposited data

How the results depend on the processing

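No paired analysis was possible because each line is 1 library. Of 87 values recomputed under an alternative, 71 stayed within their interval or within 1.5 times the count, 16 moved and 0 reversed. The 71 are no measure of robustness, because many of them could hardly move. A count of 0 cannot fall, the single-line lists already meet the floor of 5 alternative reads and 10%, and 1 added read of each base is small beside counting error. They also include a fall of the genes with a protein change from 6 to 4 under that floor. All 7 allele fractions stayed within their intervals with 1 read of each base added; exchanging read counts with a partner row was not run, as no row of the 6 genes has such a partner. When every list had to meet 5 alternative reads and 10%, UV YUMM 1.1-9 kept 1 of its 3 genes and 3 of its 5 receptor kinases, its same-codon pairs fell from 14 to 6 (chosen after seeing the data) and the adaptor and MAP kinase list had 0 genes; these follow from the lower read minimum of that table. At 20% or more, UV YUMM 1.1-9 kept 1 gene and 1 receptor kinase, the receptor kinases of all lines numbered 5 and the adaptor list 0. Without the 6 genes (chosen after seeing the data) the receptor kinases numbered 4 in all, 2 in UV YUMM 1.1-9, 1 in YUMM 1.1 and 1 in MB49, and the phosphoinositide 3-kinase list 0. Of 21 percentiles, 3 moved: Pik3ca to 48.5% and Erbb3 to 80.6% outside multigene families and sites of other lists, and Ntrk2, which itself has 14 reads, to 99.7% when set against sites with at least 20 reads. Depth limits the UV YUMM 1.1-9 rows most, with 14 to 38 reads.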
